A study of Mus musculus with 6 samples.

Results

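Immune checkpoint genes were followed through tumour dormancy and relapse in a mouse mammary cancer model. The set held 10 genes of the 22547 in each count table, picked by symbol and present in both tables. Pdcd1 (PD-1), Ctla4, Lag3, Havcr2 (TIM-3) and Tigit encode inhibitory receptors. Tox encodes a nuclear factor. Cd274 (PD-L1), Pdcd1lg2 (PD-L2), Vsir (VISTA) and Lgals9 (galectin-9) encode ligands or inhibitory surface proteins.

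Checkpoint receptors are induced when T cells are activated and dampen signalling from the antigen receptor or from CD28. PD-1 binds PD-L1 and PD-L2, which antigen-presenting cells and tumour cells can carry, and CTLA-4 competes with CD28 for CD80 and CD86. Under lasting antigen exposure several receptors stay on the same cell, a state called exhaustion, in which TOX takes part, and regulatory T cells, marked by the factor FOXP3, carry much CTLA-4.

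Single-cell RNA was counted in 6 libraries, 1 for each group, so no group had a replicate and no test between groups was possible. All tumours were transplants of a Wnt1-driven mammary tumour with an FGF receptor that the B/B homodimerizer drug switches on, in FVB mice (FVB.rGH-Luc-GFP), with the genotype written as MMTV-Wnt1/iFGRR plus a digit that differed between libraries. Mice received the dimerizer every 3 days until tumours measured about 4-5 mm, and, once tumours measured about 7-9 mm, 14 days of NVP-BGJ398, which inhibits FGF receptors, followed by 14 days without drug. The Primary library came from tumours of mice aged 8-10 weeks, and whether these mice had received inhibitor is not stated. The Dormant library came from residual tissue at 10-12 weeks, the Long-term dormant library from 32-34 weeks and the Recurrent library from regrown tumours at 20-22 weeks, so stage and age cannot be told apart. In the Jag1 and IgG libraries, both from mice aged 16 weeks, an antibody against Jagged-1 or a control IgG followed the drug-free days, in weekly doses of 15 mg/kg over 5 weeks, with collection 1 week after the last. The MMTV promoter drives Wnt1 in mammary epithelium, and the number of mice behind each library is not given in the sources used here. The 4 stage libraries were built with version 2 of the 10x Chromium 3′ kit and the antibody libraries with version 3, so levels were never compared between these sets.

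The libraries held 2133 to 6083 cells and 9735651 to 41259292 unique molecular identifiers (UMIs, counted RNA molecules), with medians of 2568 to 7065 UMIs per cell. After filtering, 4275 Primary, 3276 Dormant, 5867 Long-term dormant, 4628 Recurrent, 2722 Jag1 and 2117 IgG cells were used. Levels are UMIs per 1000000 UMIs of a cell class (CPM), which is not corrected for gene length, so levels of different genes are not compared. Every interval is a 95% interval for counting error and says nothing of differences between mice. A difference is called past 2-fold when the log2 ratio is 1 or more in size and its interval lies on 1 side of 0, for genes with at least 20 UMIs over both libraries.

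Some libraries shared cell barcodes. The Jag1 and IgG libraries had 131 cell barcodes in common, and same-barcode profiles correlated more (median r = 0.634) than profiles of different barcodes (median r = 0.459). These barcodes made up 60 of 76 Jag1 and 60 of 82 IgG macrophage- or monocyte-like cells, 9 of 13 Jag1 and 9 of 12 IgG dendritic-like cells, but 18 of 2073 Jag1 and 19 of 1492 IgG T-like cells and no NK-like cell. Ratios of the receptors and Tox in T-like cells are therefore given with and without them, and macrophage ratios between the antibody libraries are given no weight. The stage libraries shared 79 to 116 barcodes each with other stage libraries.

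T-like cells, named from 14 markers including Cd3e and Trac, numbered 662 in Primary, 1269 in Dormant, 270 in the Long-term dormant library, 404 in Recurrent, 2073 in Jag1 and 1492 in IgG. Cd3e, a subunit of the T cell receptor complex, had a UMI in 79.4% to 91.8% of T-like cells of 5 libraries and in 55.9% of those in Long-term dormant, whose T-like cells were also the shallowest. Different clusters filled the class. Cluster 6, led by Cd8b1, held 723 of the Dormant T-like cells, and cluster 8, led by Tnfrsf4, Icos and Ctla4, held 150 of those in Long-term dormant. Cluster 12, led by Gzmb and Gzmc with the gamma-delta receptor genes Trdc and Tcrg-C1, held 190 Primary and 179 Recurrent but only 4 Dormant and 7 Long-term dormant cells. Cluster 13, which had Pdcd1 and Lag3 among its leading genes, held 176 Primary, 133 Dormant, 2 Long-term dormant and 64 Recurrent cells. How much of the class values came from this make-up was not tested. Counts that moved with equal weight for each cluster are given at the end, and CD8 ratios without cluster 12 below. From a class sum alone, fewer cells holding a gene and less of its RNA per cell cannot be told apart.

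Pdcd1 encodes PD-1 and lies on the minus strand at chr1:94038305-94052553 (mm10, GENCODE). In T-like cells it reached 317 CPM in Primary (interval 291 to 345), 160.4 in Dormant (148 to 174), 70.8 in the Long-term dormant library (48.8 to 99.5) and 172 in Recurrent (151 to 195). Primary was thus highest and Long-term dormant lowest, while the intervals of Dormant and Recurrent overlapped. The log2 ratio was -0.98 for Dormant against Primary (-1.15 to -0.81), just inside 2-fold, and -1.16 for Long-term dormant against Dormant (-1.73 to -0.67), past it. After each cell was thinned to 1000 UMIs, which left out 113 Primary, 106 Dormant, 83 Long-term dormant and 19 Recurrent cells, Pdcd1 had a UMI in 27.5%, 11.3%, 5.88% and 14.0% of T-like cells in that order, against 37.3%, 22.2%, 8.52% and 29.7% before thinning. In epithelial-like cells thinned alike the share was 0.191% in Primary, 0.0759% in Recurrent and 0 in Dormant and Long-term dormant, where 0 of 241 and 0 of 110 cells allow up to 1.52% and 3.30%.

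Ctla4 (chr1:60887000-60915832, plus strand, overlapping the pseudogene Rpl18-ps1) ran the other way. T-like cells held 75.5 CPM in Primary (63.1 to 89.7), 172 in Dormant (159 to 186), 178 in the Long-term dormant library (142 to 221) and 77.5 in Recurrent (63.5 to 93.7). By CPM both dormant libraries were high, Primary and Recurrent low, and the 2 pairs did not overlap. Dormant exceeded Primary by a log2 ratio of 1.18 (0.91 to 1.47), and Recurrent lay below Dormant by a log2 ratio of -1.14 (-1.46 to -0.85). The thinned share of T-like cells was 7.65% in Primary, 12.4% in Dormant, 9.63% in the Long-term dormant library and 7.79% in Recurrent, against 0.144%, 1.24%, 0 and 0.114% of epithelial-like cells. By this share Long-term dormant, with 18 of 187 cells, lay between Dormant and Recurrent.

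Lag3 encodes an inhibitory receptor for MHC class II (chr6:124904361-124911705, minus strand, with Ptms 1976 bp away on the same strand). Its T-like level was 136 CPM in Primary (119 to 154), 255 in Dormant (239 to 272), 8.59 in the Long-term dormant library (2.34 to 22.0) and 77.5 in Recurrent (63.5 to 93.7). No 2 of these intervals overlapped, and Dormant was highest. Only 4 Lag3 UMIs were counted in the 270 Long-term dormant T-like cells, against 928 UMIs in the 1269 Dormant cells, a log2 ratio of -4.72 (-6.77 to -3.53). Recurrent against Dormant gave -1.71 (-2.02 to -1.43). The thinned share in Long-term dormant, 0.535% of T-like cells, did not exceed the 0.909% of epithelial-like cells there, so it is at background, while Dormant had 13.5% of T-like against 2.07% of epithelial-like cells.

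Havcr2 and Tigit were sparse in T-like cells. Havcr2 (chr11:46454935-46481255, plus strand), a receptor for galectin-9 and other ligands, counted 15, 51, 1 and 13 UMIs in Primary, Dormant, Long-term dormant and Recurrent T-like cells. Its level was 8.71, 14.0, 2.15 and 9.42 CPM in that order, and the log2 ratio of Long-term dormant against Dormant, -2.14, rested on that single UMI (-8.04 to -0.16). Tigit (chr16:43648867-43664146, minus strand), a receptor for CD155, counted 8, 26, 1 and 0 UMIs. With 0 UMIs in Recurrent and 26 in Dormant, it was at least 3.29-fold lower in Recurrent against a floor of 3 UMIs.

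Tox (chr4:6686353-6991557, minus strand, with the antisense gene Gm11802) varied little. It reached 66.8 CPM in Primary (55.1 to 80.2), 45.9 in Dormant (39.2 to 53.4), 62.2 in the Long-term dormant library (41.7 to 89.4) and 59.4 in Recurrent (47.3 to 73.7). Only Primary and Dormant had intervals that did not overlap, and no Tox ratio in T-like cells was past 2-fold.

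**Figure D1:**
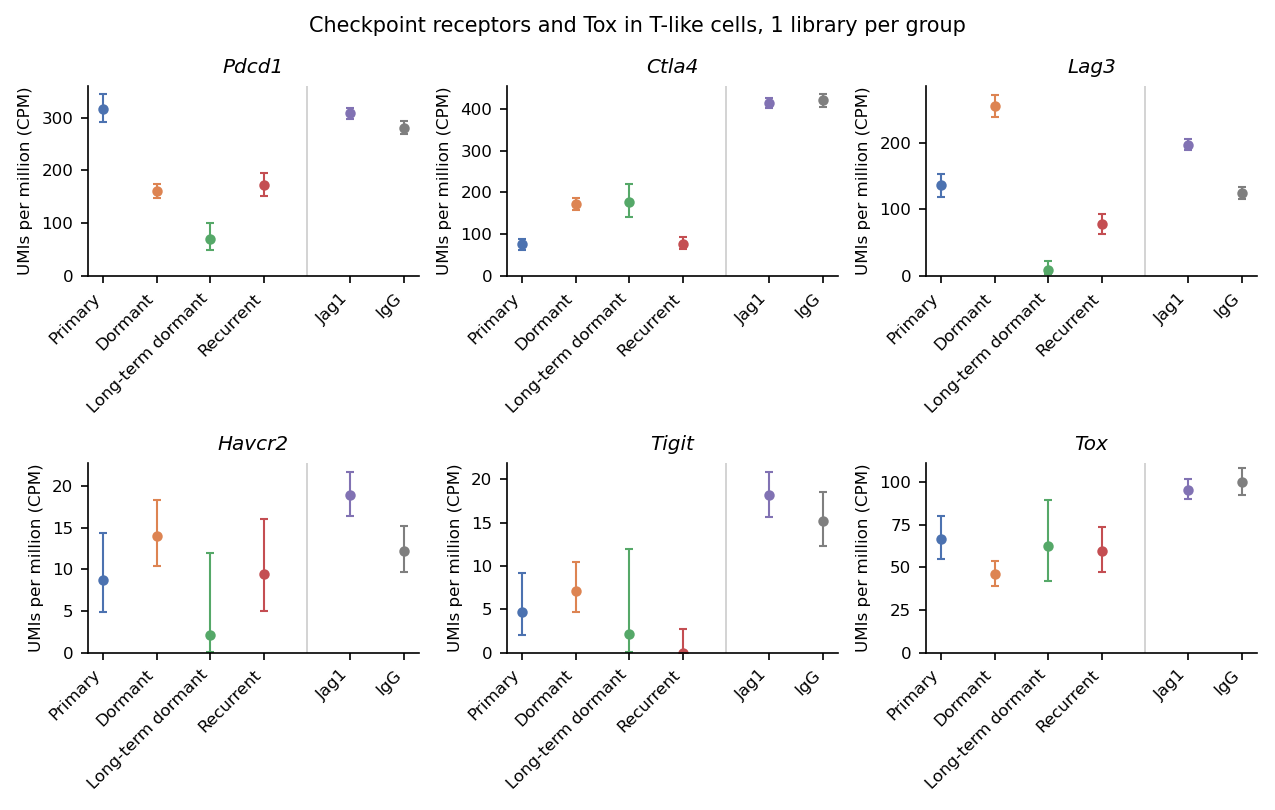
CPM in T-like cells (vertical axis, from 0) of the 5 receptors and Tox in the 4 stage libraries (left of the line) and the Jag1 and IgG libraries (right), which were built with another kit. Points are single libraries and bars 95% counting intervals. Ctla4 is high in both dormant libraries, and Lag3 peaks in Dormant and is near 0 in Long-term dormant.

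Counted over the set, 1 of 10 members was past 2-fold higher and 0 lower in Dormant against Primary T-like cells, where 7.94% of all genes were higher and 8.17% lower. In Long-term dormant against Dormant 1 was higher (Vsir) and 3 were lower (Lag3, Havcr2 and Pdcd1), against 9.16% and 3.84% of all genes. The members' median log2 ratio there was -0.55, beside 0.16 over all 8016 genes, a median that became -0.11 with TMM scaling. Recurrent against Dormant had 0 higher and 3 lower (Ctla4, Lag3 and Tigit), against 8.42% and 6.56% of all genes. Recurrent against Primary had none of 9 with enough UMIs past 2-fold, beside 2.37% of genes higher and 2.04% lower, 4.41% in all. Pdcd1 and Lag3 came nearest there, with log2 ratios of -0.88 (-1.11 to -0.66) and -0.81 (-1.15 to -0.47). Dormant is shared by 3 of these comparisons and Primary by 2.

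T-like cells were split by the UMIs they held, a split that depends on depth, and ratios within it were added after the data were seen. The groups were CD8 (Cd8a or Cd8b1, no Cd4 or Foxp3), CD4 (Cd4, no Cd8a, Cd8b1 or Foxp3) and Foxp3 cells (any Foxp3 UMI). The CD8 cells, the killer lineage, numbered 142 in Primary, 437 in Dormant, 57 in the Long-term dormant library and 155 in Recurrent. Their Lag3 level was 78.6 CPM in Primary, 276 in Dormant, 0 in the Long-term dormant library and 25.3 in Recurrent. Dormant CD8 cells thus stood above all others. The log2 ratio of Dormant against Primary was 1.80 (1.36 to 2.30) and of Recurrent against Dormant -3.40 (-4.27 to -2.73). With 0 UMIs in 57 cells, Long-term dormant was at least 9.23-fold lower than Dormant, which held 402 UMIs.

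Ctla4 in CD8 cells was high in both dormant libraries and low in Primary and Recurrent, as in all T-like cells. Unlike Lag3 its level was not low in Long-term dormant, a value that rests on 57 cells. Ctla4 was at 12.8 CPM in Primary, 91.4 in Dormant, 89.8 in the Long-term dormant library and 17.4 in Recurrent. Its log2 ratio was 2.74 for Dormant against Primary (1.75 to 4.18) and -2.33 for Recurrent against Dormant (-3.43 to -1.51). Pdcd1 in CD8 cells differed less, at 144, 177, 139.7 and 90.2 CPM in stage order, with no ratio past 2-fold. In Dormant against Primary CD8 cells, 8.76% of all genes were past 2-fold higher and 6.57% lower, and the members past it were Ctla4, Lag3 and Havcr2 (26 against 2 UMIs, 2.00, 0.29 to 5.41) higher and Vsir (-1.04) and Lgals9 (-1.21) lower. In Recurrent against Dormant CD8 cells, where 7.09% of genes were higher and 7.25% lower, Ctla4, Lag3, Havcr2 (1 against 26 UMIs, -2.94, -8.85 to -0.89) and Tox (-1.02) were lower and Lgals9 (1.07) higher.

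Different clusters also filled the CD8 group. Cluster 13, with Pdcd1 and Lag3 as leading genes, held 18 Primary, 110 Dormant, 0 Long-term dormant and 7 Recurrent CD8 cells. Cluster 8, with Ctla4 as a leading gene, held 6, 42, 3 and 1 in that order. The part of these 2 clusters in the CD8 ratios was not tested. Cluster 12 held 44 of the 142 Primary and 85 of the 155 Recurrent CD8 cells. Without it, the Dormant against Primary log2 ratio was 2.12 for Ctla4 and 1.31 for Lag3, and the Recurrent against Dormant ratio was -1.49 for Ctla4 and -3.81 for Lag3. Tox and Havcr2 were then no longer past 2-fold in Recurrent against Dormant, whereas Pdcd1 (-1.05) was lower and Vsir (1.85) higher. Without the cluster, 9.80% of genes were higher and 3.61% lower in Dormant against Primary, and 4.29% higher and 6.16% lower in Recurrent against Dormant. Lag3 was also lower in Recurrent than in Primary CD8 cells, by a log2 ratio of -1.61 (-2.56 to -0.78) with the cluster where 2.39% of all genes were higher and 1.71% lower, and -2.51 without it, where 3.25% were higher and 1.73% lower.

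CD4 cells, the helper lineage, numbered 101 in Primary and 131 in Dormant. Pdcd1 reached 272 CPM in Dormant and 1052 CPM in Primary CD4 cells, a log2 ratio of -1.95 (-2.30 to -1.61). Ctla4 reached 379 CPM in Dormant and 127 CPM in Primary, a log2 ratio of 1.55 (0.94 to 2.28). Lag3 reached 472 CPM in Dormant and 650.2 CPM in Primary, a log2 ratio of -0.46 (-0.80 to -0.12), within 2-fold and with Primary higher; its difference from the CD8 ratio was not tested. In this comparison 8.83% of all genes were higher and 7.11% lower. Of the Primary CD4 cells 75 lay in cluster 13, of the Dormant ones 118 in cluster 8, and Pdcd1 was a leading gene of cluster 13 and Ctla4 of cluster 8. Recurrent had 39 CD4 cells with 59 Pdcd1 and 11 Ctla4 UMIs, and Long-term dormant 27 cells with 2 Pdcd1, 9 Ctla4 and 0 Lag3 UMIs.

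Cells with a Foxp3 UMI were few in the stage libraries, with 22 in Primary, 38 in Dormant, 11 in the Long-term dormant library and 13 in Recurrent. They held 21, 87, 28 and 26 Ctla4 UMIs in that order, or 563, 469.9, 437 and 467 CPM. All 4 intervals overlapped, so the order of Ctla4 levels seen in all T-like cells was not resolved among these cells.

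**Figure D2:**
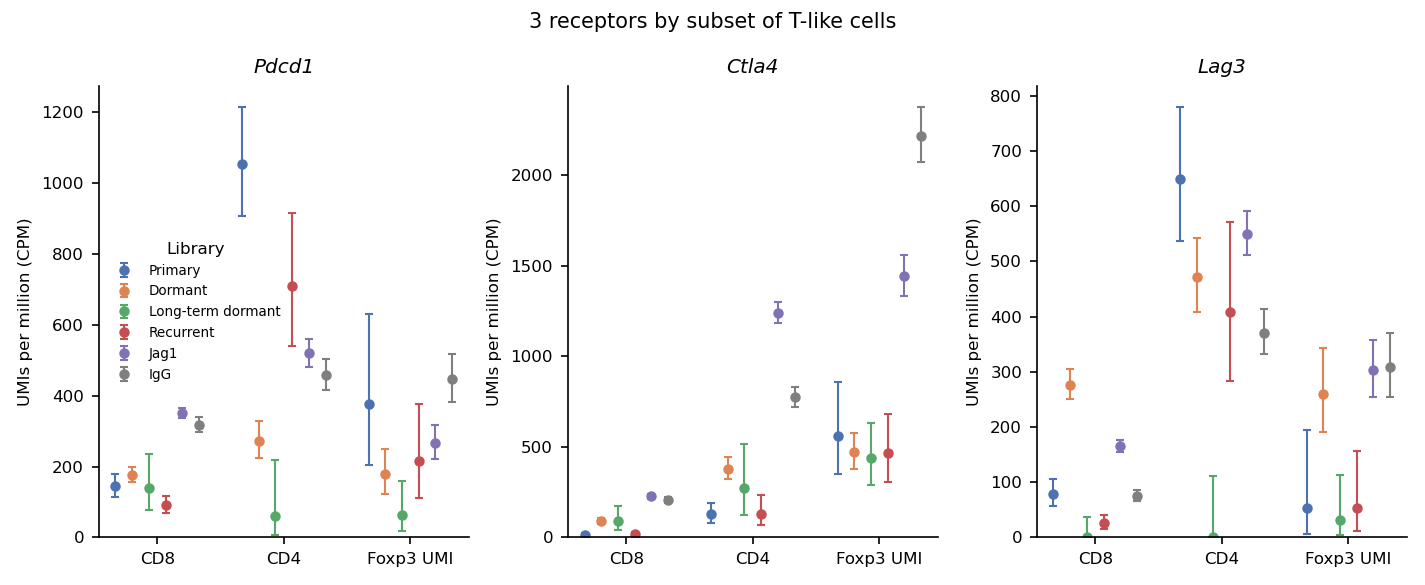
CPM (vertical axis, from 0) of Pdcd1, Ctla4 and Lag3 in T-like cells split by their UMIs of Cd8a or Cd8b1, Cd4 and Foxp3. Points are single libraries, bars 95% counting intervals; the Foxp3 groups of the stage libraries hold 11 to 38 cells and the Long-term dormant CD4 group 27. Pdcd1 and Lag3 stand highest in Primary CD4 cells among the stage libraries, and Ctla4 in cells with a Foxp3 UMI.

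Receptors were also counted together in single cells, thinned to 1000 UMIs. At least 2 of the 5 receptors were seen in 10.9% of T-like cells in Primary (8.44 to 13.8), 9.46% in Dormant (7.84 to 11.3), 0.535% in the Long-term dormant library (0.0135 to 2.94) and 5.19% in Recurrent (3.20 to 7.91). Long-term dormant stood below the others. Among Dormant cells with a Pdcd1 UMI, 38.6% also had Lag3 and 35.6% Ctla4, against 13.5% and 12.4% of all Dormant T-like cells. Among Primary cells with a Pdcd1 UMI, 27.2% had Lag3, against 13.3% of all, but 10.6% had Ctla4, against 7.65% of all. These are descriptions, since cells of 1 library share their source.

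The antibody comparison asked what follows when the Notch ligand Jagged-1 is blocked after inhibitor treatment. In T-like cells 0 of 10 members were past 2-fold in either direction, where 0.781% of all genes were higher and 1.53% lower. The members' median log2 ratio was 0.05, beside -0.09 over 10112 genes. Lag3 had the largest ratio, with 197 CPM in Jag1 (189 to 206) and 124 CPM in IgG (116 to 133), a log2 ratio of 0.66 (0.55 to 0.78). Havcr2 came next with 19.0 CPM in Jag1 and 12.2 CPM in IgG, a log2 ratio of 0.63 (0.26 to 1.03). Without the shared barcodes these ratios were 0.73 and 0.65.

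The other receptors were close in both libraries. Pdcd1 was at 308 CPM in Jag1 (298 to 318) and 281 CPM in IgG (268 to 294). Ctla4 was at 413 CPM in Jag1 and 420.1 CPM in IgG, with overlapping intervals. Tox was at 95.6 CPM in Jag1 and 99.9 CPM in IgG, and Tigit at 18.2 CPM in Jag1 and 15.2 CPM in IgG. Without the shared barcodes the log2 ratios were 0.15 for Pdcd1, 0.03 for Ctla4, -0.04 for Tox and 0.30 for Tigit. The Lag3 share of T-like cells after thinning was 12.9% in Jag1 (11.4 to 14.4) and 7.12% in IgG (5.87 to 8.55), against 27.8% in Jag1 and 16.2% in IgG before it, and the antibody libraries held no epithelial-like cells to give a background.

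Among CD8 cells, 1121 in Jag1 and 741 in IgG, both Lag3 and Havcr2 were past 2-fold. Lag3 stood at 165 CPM in Jag1 (155 to 176) and 74.8 CPM in IgG (65.4 to 85.1), a log2 ratio of 1.14 (0.93 to 1.35). Havcr2 stood at 22.4 CPM in Jag1 and 9.76 CPM in IgG, a log2 ratio of 1.18 (0.62 to 1.83). Past 2-fold in these cells were 1.19% of all genes on the higher and 1.89% on the lower side. Leaving out shared barcodes gave 1.13 and 1.15. Pdcd1 and Ctla4 in CD8 cells were within 2-fold, at 351 and 227 CPM in Jag1 against 318 and 207 CPM in IgG.

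Cells with a Foxp3 UMI numbered 70 in Jag1 and 84 in IgG, and 3 members were past 2-fold lower there, where 1.32% of all genes were higher and 4.20% lower. Cluster 5, with Il10 and Foxp3 as leading genes, held 51 of these Jag1 and 71 of these IgG cells. It had 187 Jag1 and 126 IgG cells in all, so a Foxp3 UMI picked unlike parts of it. The part of this in the ratios was not tested. Tox stood at 102 CPM in Jag1 (75.3 to 136) and 261 CPM in IgG (212 to 318), a log2 ratio of -1.34 (-1.88 to -0.83). Vsir had 6 UMIs in Jag1 and 24 in IgG, a log2 ratio of -2.19 (-3.86 to -0.95), and Cd274 18 UMIs in Jag1 and 31 in IgG, a log2 ratio of -1.04 (-1.98 to -0.18). Without the shared barcodes these ratios were -1.25 for Tox, -2.16 for Vsir and -1.01 for Cd274. Ctla4, at 1443 CPM in Jag1 (1335 to 1558) and 2221 CPM in IgG (2074 to 2376), was lower in Jag1 without reaching 2-fold. No member passed 2-fold in CD4 cells (1.77% of genes higher, 1.72% lower) with all barcodes, and without the shared ones Pdcd1lg2 did, at 1.12.

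NK-like (natural killer-like) cells, named from Ncr1, Gzma and related genes, held little of the T cell receptors of the set. Pdcd1 stood at 6.18 CPM in Primary (1 UMI), 20.4 in Dormant, 0 in the Long-term dormant library and 0 in Recurrent NK-like cells. Dormant NK-like cells also held most T cell RNA, with the summed level of the 14 T markers at 2201, 3065, 1368 and 2094 CPM in stage order and a Cd3e UMI in 7.14%, 27.1%, 3.47% and 10.8% of cells. Long-term dormant against Dormant had 0 members higher and 4 lower (Pdcd1, Ctla4, Lag3 and Pdcd1lg2), where 8.70% of genes were higher and 7.60% lower. Among NK-like cells without a UMI of Cd3d, Cd3e, Cd3g or Trac, only Pdcd1lg2 stayed lower (-1.37, -2.65 to -0.38) and Tox was higher (1.45, 0.23 to 2.79), where 6.83% of genes were higher and 9.44% lower.

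In Jag1 against IgG NK-like cells, where 0.947% of genes were higher and 2.21% lower, 3 members were past 2-fold higher. Lag3 had 57 UMIs in Jag1 and 8 in IgG (log2 ratio 1.77, 0.77 to 3.13), Pdcd1 had 37 UMIs in Jag1 and 6 in IgG (1.54) and Ctla4 had 91 UMIs in Jag1 and 19 in IgG (1.24). Different clusters filled this class. Cluster 7, led by Klra4, Klra7 and Gzma, held 153 Jag1 and 86 IgG cells, and cluster 21, led by Hes1 and Klrb1b, held 37 and 13. Cluster 24 held 9 Jag1 and 27 IgG cells and cluster 31 held 0 and 21. The part of this make-up in the ratios was not tested. The T marker sum was 2649.8 CPM in Jag1 and 2959 CPM in IgG. Without cells holding those 4 T cell genes, Lag3 had 18 UMIs in Jag1 and 2 in IgG (1.84, 0.06 to 5.27), and the other 2 were no longer past 2-fold, where 1.49% of genes were higher and 2.11% lower. None of the 8 members with enough UMIs was past 2-fold in NK-like cells in Dormant against Primary (7.01% of genes higher, 5.43% lower), and none of 8 in Recurrent against Dormant (5.29% and 5.83%). In Recurrent against Primary (2.93% and 2.57%, 5.50% in all) only 1 member had enough UMIs, so the set was not read there.

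The ligands and VISTA were spread over other cells. Cd274, encoding PD-L1, lies on the plus strand at chr19:29367455-29388095, and Pdcd1lg2, encoding PD-L2, follows 22824 bp further on the same strand at chr19:29410919-29471161. Antisense genes overlap both, AC119228.1 for Cd274 and A930007I19Rik for Pdcd1lg2. Lgals9 lies on the minus strand at chr11:78962974-78984946. Vsir lies on the plus strand at chr10:60346851-60372684 and overlaps Cdh23 on the other strand. RefSeq promoter sequences (GRCm38.p6, 250 bases before to 50 after the start) were found for 8 of the 10 members. Those of the PD-1 ligands are shown because the neighbours differed in how their UMIs were split between myeloid and lymphoid cells of the stage libraries, and that of Lgals9 for contrast, on the gene's own strand at chr19:29367188-29367487, chr19:29410669-29410968 and chr11:78984875-78985174. Capitals mark GGAAA, the core of NFAT sites, and an interferon regulatory factor (IRF) motif, GAAA followed by any 2 bases and GAAA, on either strand.
Cd274: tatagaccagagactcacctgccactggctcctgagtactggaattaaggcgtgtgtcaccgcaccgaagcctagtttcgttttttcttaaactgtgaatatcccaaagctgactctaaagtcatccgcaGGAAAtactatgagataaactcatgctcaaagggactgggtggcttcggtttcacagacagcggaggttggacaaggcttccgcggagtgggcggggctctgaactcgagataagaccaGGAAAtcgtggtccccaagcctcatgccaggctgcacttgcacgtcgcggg
Pdcd1lg2: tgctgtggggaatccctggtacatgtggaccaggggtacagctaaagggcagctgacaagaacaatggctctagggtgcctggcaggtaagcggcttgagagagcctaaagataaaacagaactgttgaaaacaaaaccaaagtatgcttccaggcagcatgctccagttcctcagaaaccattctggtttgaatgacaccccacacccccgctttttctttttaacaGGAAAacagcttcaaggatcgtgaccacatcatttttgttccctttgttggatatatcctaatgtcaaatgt
Lgals9: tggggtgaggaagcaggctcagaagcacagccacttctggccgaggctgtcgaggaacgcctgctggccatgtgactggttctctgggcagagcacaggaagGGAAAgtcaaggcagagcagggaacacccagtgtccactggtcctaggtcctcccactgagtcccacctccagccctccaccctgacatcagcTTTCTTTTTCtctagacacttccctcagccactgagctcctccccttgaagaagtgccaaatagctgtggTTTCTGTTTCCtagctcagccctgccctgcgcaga
Cd274 held GGAAA 120 bases and 1 base before the start, and Pdcd1lg2 22 bases before it. Lgals9 held 2 IRF matches, beginning 55 bases before and 16 bases after the start on the opposite strand, the second overlapping a GGAAA match. Of 32851 promoters of this length, 61.3% hold GGAAA and 3.44% the IRF motif. The interferon-gamma site TTCNNNGAA (8.3% of promoters) was in none of the 8, and the AP-1 motif TGANTCA (7.81%) was only in that of Havcr2.

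Cd274 and Pdcd1lg2 UMIs were split differently between compartments in the stage libraries. Of the Cd274 UMIs in all cells used, myeloid cells held 79.9% in Primary, 40.1% in Dormant, 50.3% in the Long-term dormant library and 69.6% in Recurrent. Lymphoid cells held 9.23%, 47.5%, 15.9% and 5.85% of them in the same order. Of the Pdcd1lg2 UMIs, myeloid cells held 21.2%, 16.5%, 39.6% and 24.5% and lymphoid cells 76.1%, 77.8%, 47.9% and 64.7%. Myeloid cells made up 32.8%, 15.6%, 38.1% and 29.9% of all cells and lymphoid cells 16.8%, 65.3%, 8.47% and 10.2%. In the antibody libraries both genes were mostly lymphoid, Cd274 with 92.7% in Jag1 and 90.2% in IgG and Pdcd1lg2 with 92.6% in Jag1 and 93.1% in IgG, where lymphoid cells were 91.3% of Jag1 and 88.0% of IgG cells. Pdcd1lg2 was at 86.5 CPM in Primary, 94.3 in Dormant, 25.3 in the Long-term dormant library and 58.5 in Recurrent NK-like cells, and at 109 CPM in Jag1 and 95.5 CPM in IgG. It was lower in Long-term dormant than in Dormant NK-like cells by a log2 ratio of -1.84 (-2.93 to -1.01), and in T-like cells it stood between 23.6 and 47.0 CPM in the stage libraries. Cd274 in T-like cells stood at 18.0 CPM in Primary, 17.9 in Dormant, 15.0 in the Long-term dormant library and 16.7 in Recurrent, with overlapping intervals.

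Macrophage- or monocyte-like cells numbered 1254 in Primary, 207 in Dormant, 1175 in the Long-term dormant library and 1268 in Recurrent. The tumour macrophage-like clusters, named from Trem2, Spp1 and related genes, held 1203 Primary, 60 Dormant, 8 Long-term dormant and 1122 Recurrent cells. The resident-like cluster, named from Mrc1, F13a1 and related genes, held 51, 147, 1167 and 146. Ratios of Cd274, Havcr2, Lag3, Pdcd1lg2 and Ctla4 within these clusters are therefore given where their UMIs allow.

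Cd274 in the class stood at 28.6 CPM in Primary (25.3 to 32.1), 47.0 in Dormant (34.4 to 62.7), 9.85 in the Long-term dormant library (7.04 to 13.4) and 33.6 in Recurrent (29.9 to 37.7). Long-term dormant was lowest, and the log2 ratio of Long-term dormant against Dormant was -2.25 (-2.90 to -1.61). Within the resident-like cluster Cd274 was at 35.6 CPM in Primary, 39.4 in Dormant, 9.93 in the Long-term dormant library and 8.09 in Recurrent, and against Dormant the log2 ratio of Long-term dormant lay between -2.75 and -1.19 and that of Recurrent was -2.18 (-4.03 to -0.86). Within the tumour macrophage-like clusters it was at 59.4 CPM in Dormant and 28.4 CPM in Primary, a log2 ratio of 1.10 (0.37 to 1.69). The 2 macrophage groups of the Recurrent library thus differed, with 35.6 CPM in the tumour macrophage-like and 8.09 CPM in the resident-like cells.

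Havcr2, scarce in T-like cells, was mostly myeloid in the stage libraries, with 95.1% of its UMIs there in Primary, 72.9% in Dormant, 92.5% in the Long-term dormant library and 96.1% in Recurrent. In the antibody libraries, which were mostly lymphoid cells, lymphoid cells held 79.8% of its UMIs in Jag1 and 65.0% in IgG. Macrophage- or monocyte-like cells held 69.4 CPM in Primary (64.3 to 74.8), 48.0 in Dormant (35.3 to 63.8), 3.45 in the Long-term dormant library (1.88 to 5.78) and 62.2 in Recurrent (57.0 to 67.6). Long-term dormant stood apart, with a log2 ratio of -3.76 against Dormant (-4.78 to -2.91). The tumour macrophage-like clusters held 70.3 CPM in Primary, 86.5 in Dormant and 66.9 in Recurrent, with overlapping intervals. The resident-like cluster held 31.2 CPM in Primary, 24.6 in Dormant, 3.23 in the Long-term dormant library and 0 in Recurrent, and its log2 ratio of Long-term dormant against Dormant was -2.92 (-4.12 to -1.76).

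Vsir and Lgals9 were steadier in these cells. Vsir, an inhibitory protein of the B7 family abundant on myeloid cells, was at 182 CPM in Primary (174 to 191), 120.5 in Dormant (99.7 to 144), 153 in the Long-term dormant library (141 to 165) and 146 in Recurrent (138 to 154). Myeloid cells held 86.5%, 48.2%, 72.4% and 88.3% of its UMIs in that order. Lgals9, a galactoside-binding lectin, was at 134, 107, 71.4 and 136 CPM in the same order. Neither was past 2-fold in the class in any stage comparison. In T-like cells Vsir was at 41.2 CPM in Primary, 26.6 in Dormant, 60.1 in the Long-term dormant library and 37.0 in Recurrent, and its log2 ratio of Long-term dormant against Dormant was 1.19 (0.51 to 1.79). Lgals9 was also found outside the immune cells, at 48.1 CPM in Primary, 93.0 in Dormant, 35.2 in the Long-term dormant library and 81.0 in Recurrent epithelial-like cells, and at 85.1 CPM in Dormant, 73.1 in the Long-term dormant library and 75.2 in Recurrent fibroblast-like cells.

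**Figure D3:**
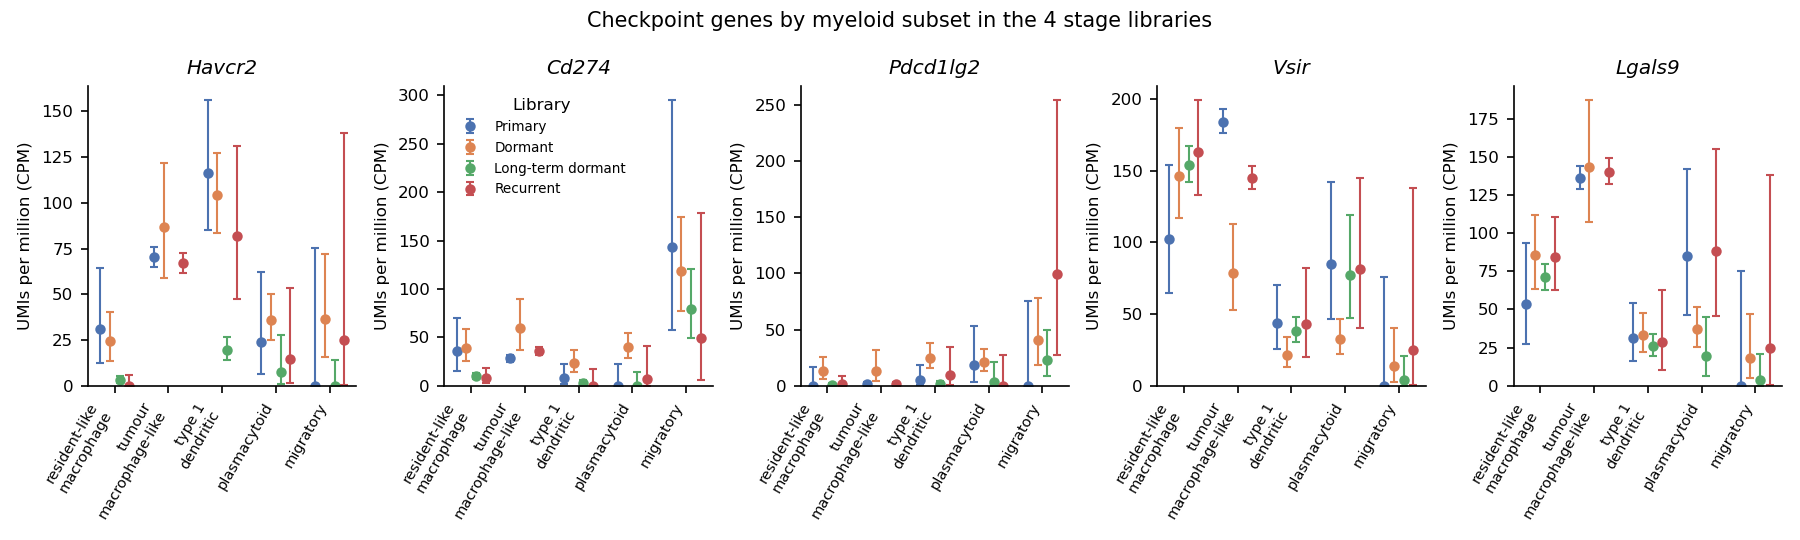
CPM (vertical axis, from 0, a scale per gene) of 5 members in the macrophage and dendritic subsets of the 4 stage libraries, for groups of at least 10 cells. Points are single libraries and bars 95% counting intervals. Havcr2 and Cd274 are low in Long-term dormant resident-like cells, and Vsir is not.

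Over the class, Dormant against Primary had 1 member past 2-fold higher (Pdcd1lg2, 13 against 19 UMIs, log2 ratio 2.79) and 0 lower, where 9.26% of genes were higher and 5.69% lower. Long-term dormant against Dormant had 0 higher and 3 lower (Havcr2, Cd274 and Lag3), where 9.38% of genes were higher and 5.76% lower. Recurrent against Dormant had 0 higher and 3 lower (Ctla4, Lag3 and Pdcd1lg2), where 6.10% were higher and 8.00% lower. Within the tumour macrophage-like clusters, Lag3 was higher in Dormant than in Primary (1.78, 1.04 to 2.40) and lower in Recurrent than in Dormant (-2.35, -3.00 to -1.58), and Pdcd1lg2, with 5 Dormant UMIs, gave 2.86 (0.99 to 4.23) and -2.86 (-4.28 to -0.97). Of all genes there, 5.79% were higher and 5.84% lower in Dormant against Primary, and 6.40% higher and 5.00% lower in Recurrent against Dormant. Within the resident-like cluster Lag3 had 14 UMIs in Long-term dormant and 4 in Dormant, too few for a call, and Ctla4 had under 20 UMIs in every comparison within either group of clusters. Recurrent against Primary had none of the 7 members with enough UMIs, where 3.97% were higher and 1.88% lower, 5.85% in all. The summed T markers in these cells were 43.7 CPM in Primary, 309 in Dormant, 52.7 in the Long-term dormant library and 44.0 in Recurrent, with all 14 markers detected in each. Without cells holding a UMI of Cd3d, Cd3e, Cd3g or Trac, the Long-term dormant against Dormant log2 ratios were -3.50 for Havcr2, -2.27 for Cd274 and -2.85 for Lag3, and Ctla4 was no longer past 2-fold in Recurrent against Dormant.

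Jag1 against IgG had 0 of 6 members with enough UMIs past 2-fold in macrophage- or monocyte-like cells (4.74% of genes higher, 3.13% lower). After the shared barcodes were left out, 16 Jag1 and 22 IgG cells remained, too few to compare.

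**Figure D4:**
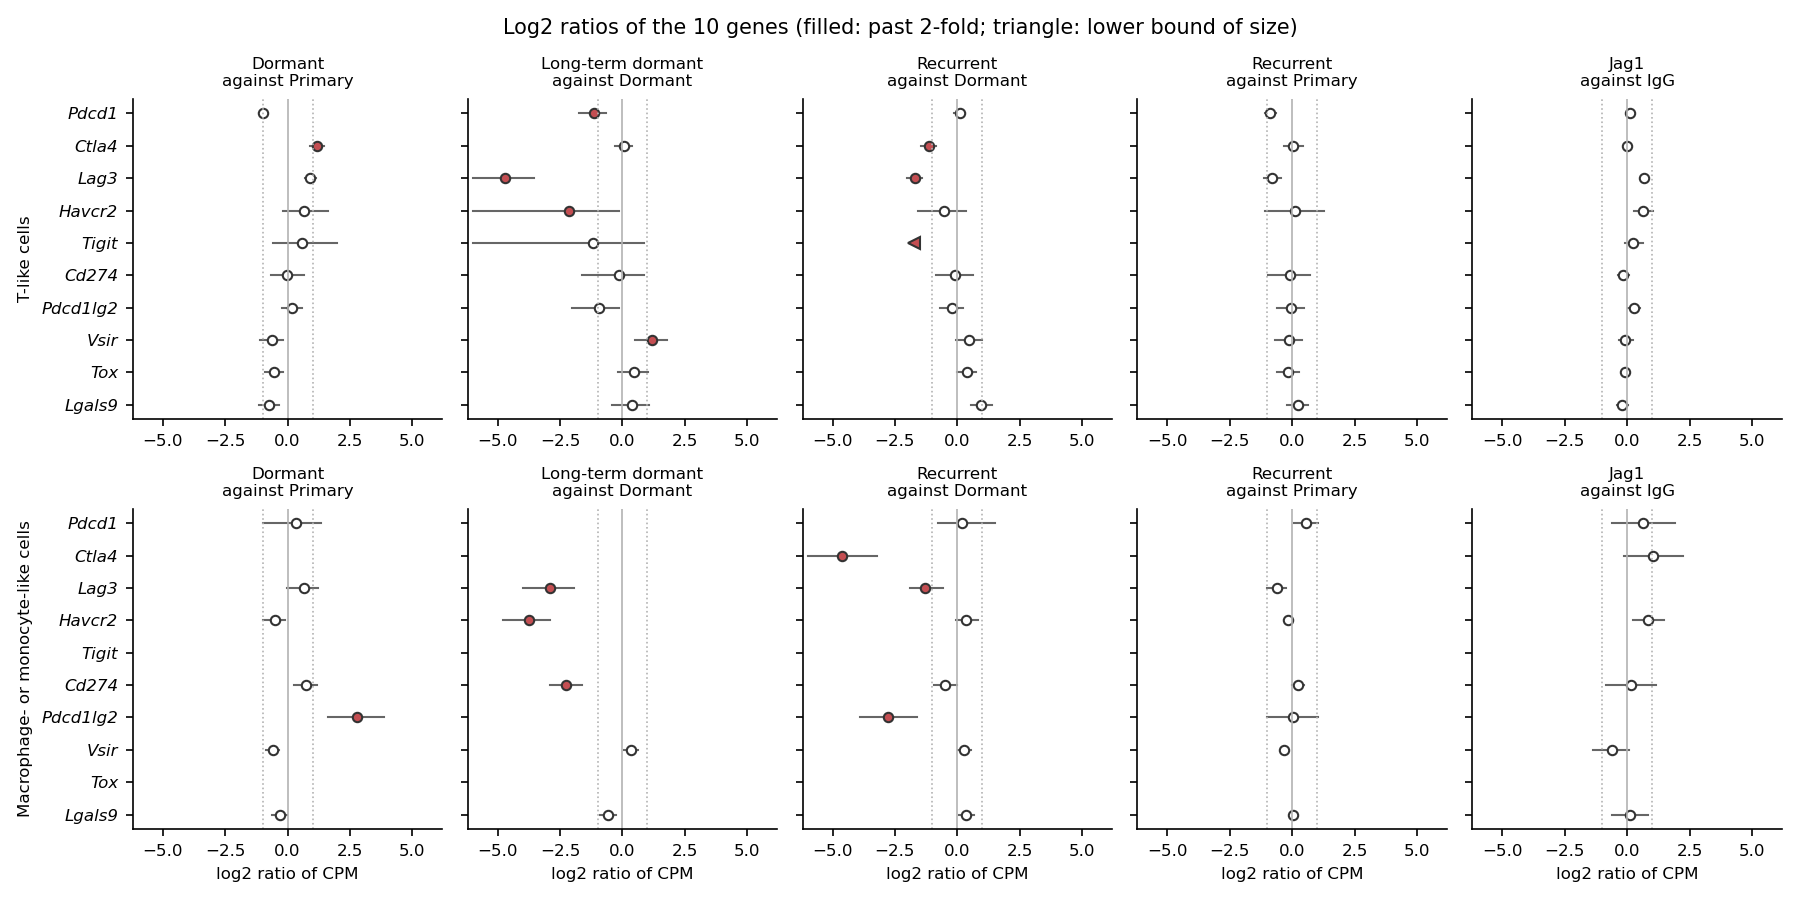
Log2 ratios of CPM (horizontal axis) of the 10 genes for each of the 5 comparisons, in T-like cells (top) and macrophage- or monocyte-like cells (bottom). Filled points are past 2-fold, lines are 95% counting intervals drawn up to 6, triangles stand at the lower bound of size where 1 library had 0 UMIs, and genes under 20 UMIs are not drawn. In T-like cells Lag3 lies far to the left for Long-term dormant against Dormant; the Jag1 against IgG macrophage panel rests mostly on shared barcodes.

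Dendritic-like cells present antigen to T cells, and those of the Dormant library held much T cell RNA. Their summed T markers were 290.0 CPM in Primary, 1253 in Dormant, 113 in the Long-term dormant library and 520.5 in Recurrent, and Cd3e had a UMI in 5.15%, 27.8%, 2.77% and 4.05% of cells. Dormant against Primary had 6 members past 2-fold higher and 0 lower, where 9.42% of genes were higher and 5.97% lower. Without cells holding a UMI of Cd3d, Cd3e, Cd3g or Trac, Cd274 alone was past it, at 1.18 (0.20 to 2.40), where 6.91% of genes were higher and 6.36% lower. Long-term dormant against Dormant had 0 higher and 7 lower, where 6.51% were higher and 10.2% lower, and without those cells Havcr2 (-2.58), Cd274 (-2.19) and Pdcd1lg2 (-2.03) were lower, where 6.64% of genes were higher and 7.03% lower. Of the dendritic subsets described below, Dormant held 129 plasmacytoid and 104 type 1 cells, and Long-term dormant 154 and 465. How much of the class ratios came from this make-up was not tested.

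Recurrent against Dormant dendritic-like cells had 1 member higher (Vsir, 1.03) and 3 lower (Cd274, Ctla4 and Pdcd1), where 5.31% of genes were higher and 5.28% lower, and without the cells with T cell UMIs Cd274 was lower (-2.04, -4.58 to -0.59, 3 against 39 UMIs), where 5.85% of genes were higher and 3.46% lower. Recurrent against Primary had none of the 4 members with enough UMIs, where 5.16% were higher and 2.69% lower, 7.85% in all. Among type 1 dendritic cells, the subset that cross-presents antigen, Havcr2 was at 116 CPM in Primary, 104 in Dormant, 19.7 in the Long-term dormant library and 81.7 in Recurrent. Long-term dormant was again lowest, with a log2 ratio of -2.39 against Dormant (-2.97 to -1.85), in a comparison where 5.71% of genes were higher and 7.44% lower.

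Migratory dendritic cells, which carry antigen to lymph nodes, had the highest Cd274 of the dendritic subsets in the 4 stage libraries. It was at 143 CPM in Primary (11 cells), 119 in Dormant (27 cells), 79.3 in the Long-term dormant library (92 cells) and 49.6 in Recurrent (10 cells), with overlapping intervals. Primary neutrophil-like cells held 13 Cd274 UMIs in 53 cells, or 313 CPM (167 to 536).

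Plasmacytoid dendritic cells, the interferon-producing subset, carried Lag3 in every library where they were found. It was at 109 CPM in Primary (22 cells), 70.6 in Dormant (129 cells), 150.2 in the Long-term dormant library (154 cells) and 125 in Recurrent (25 cells), and there were 21 UMIs in 13 Jag1 cells and 11 UMIs in 12 IgG cells. Without shared barcodes, 15 UMIs in 4 Jag1 cells and 3 UMIs in 3 IgG cells were left. In Long-term dormant these cells held 39 Lag3 UMIs, against 4 in all T-like cells of that library. Their log2 ratio of Long-term dormant against Dormant was 1.10 (0.48 to 1.68), the reverse of T-like cells, in a comparison where 10.8% of genes were higher and 7.09% lower; the difference between the cell types was not tested. Fibroblast-like cells of Long-term dormant held 131 Lag3 UMIs in 2897 cells, or 11.6 CPM (9.73 to 13.8).

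**Figure D5:**
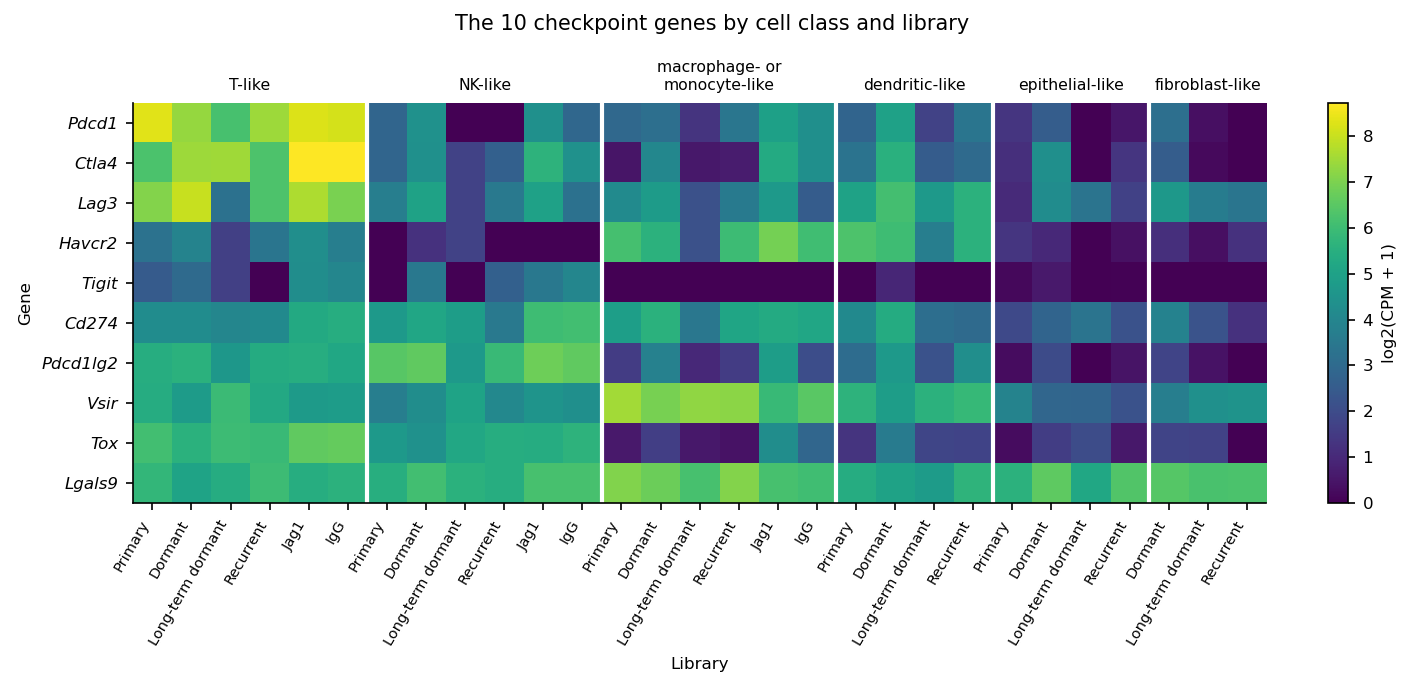
Level of the 10 genes (rows) as log2(CPM + 1), by colour, by class and library with at least 50 cells (columns). Only T-, NK-, macrophage- or monocyte-, dendritic-, epithelial- and fibroblast-like cells are drawn, and other classes are left out. Pdcd1, Ctla4 and Tox are brightest in T-like columns, as is Lag3 except in Long-term dormant, where it is 8.59 CPM, and Vsir in macrophage- or monocyte-like columns.

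Related gene lists, chosen with results of these data known, were read in T-like cells. Of 16 regulators of exhaustion and memory, 6 were past 2-fold higher and 0 lower in Dormant against Primary, with a median log2 ratio of 0.84 beside -0.06 over all genes, of which 7.94% were higher and 8.17% lower. Tox2, a relative of Tox, had 21.1 CPM in Dormant and 4.07 CPM in Primary (2.29), Nr4a3, an activation-induced nuclear receptor, 109 CPM in Dormant and 23.2 CPM in Primary (2.21), and Irf4, an activation-induced factor, 14.3 CPM in Dormant and 4.07 CPM in Primary (1.73). In Recurrent against Dormant, where 8.42% of genes were higher and 6.56% lower, 0 of the 16 were higher and 4 lower, Tox2 (-2.18), Lef1 (-1.68) and Tcf7 (-1.35) among them, the last pair being factors of naive and memory T cells. Cluster 12 held 190 Primary, 4 Dormant and 179 Recurrent T-like cells, and cluster 6 held 129, 723 and 89. How much of these counts came from this make-up was not tested.

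Of 7 measured other inhibitory receptors, 1 was higher (Btla, 1.24) and 4 were lower in Dormant against Primary T-like cells, against the same 7.94% and 8.17% of all genes. Cd160 was at 19.2 CPM in Dormant and 112 CPM in Primary (-2.54), Cd200r1 at 4.94 CPM in Dormant and 34.8 CPM in Primary (-2.79), and Cd244a at 8.51 CPM in Dormant and 39.5 CPM in Primary (-2.20). Cd160, Cd200r1 and Cd244a thus lay lower in the whole Dormant T-like class, where Ctla4 and Btla lay higher. Cluster 12 held 190 Primary but 4 Dormant cells of this class, and no value of these receptors without it is given here. Of 10 costimulatory receptors, 4 were higher (among them Cd27 1.81, Slamf6 1.57 and Cd40lg 1.42) and 2 lower (Cd226 -2.25 and Tnfrsf9 -1.36). In Jag1 against IgG T-like cells none of the 16 regulators and none of the 10 costimulatory receptors was past 2-fold. Of 10 measured other inhibitory receptors 0 were higher and 2 lower there, as were 0 and 2 of 10 measured counter-receptors. Of all genes in this comparison 0.781% were higher and 1.53% lower. Of 9 measured counter-receptors of the members, 0 were higher and 1 lower in Dormant against Primary T-like cells.

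Interferon-gamma induces PD-L1, and a list of genes of its response was read in macrophage- or monocyte-like cells. The list held receptor chains and signalling genes, such as Ifngr1 and Jak1, beside targets. Of 16 measured genes, 0 were higher and 8 lower in Long-term dormant against Dormant, with a median log2 ratio of -0.98 beside 0.18 over all genes, of which 9.38% were higher and 5.76% lower. This list was read in the whole class, of which the resident-like cluster was 1167 of 1175 cells in Long-term dormant and 147 of 207 in Dormant. The chemokine gene Cxcl9 was at 8.62 CPM in Long-term dormant and 486 CPM in Dormant (-5.80), the GTPase gene Gbp4 at 2.46 CPM in Long-term dormant and 15.3 CPM in Dormant (-2.61), and the chemokine gene Cxcl10 at 19.7 CPM in Long-term dormant and 76.6 CPM in Dormant (-1.96). Cd274 lay lower in the same comparison, and whether the 2 are linked was not tested. In Dormant against Primary 4 of the 16 were higher and 0 lower, against 9.26% and 5.69% of all genes.

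Across the 25 sums of class and library with at least 50 cells in the stage table, the gene most like each member was sought by Pearson's r of log2(CPM + 10). These points share libraries, depth and cell type, so r is a description. Tox was most like Zap70, a kinase of the T cell receptor (r = 0.973), Pdcd1lg2 most like Ctsw (0.963), Ctla4 most like Cd5 (0.961) and Pdcd1 most like Nmrk1 (0.928). Havcr2 was most like Lair1 (0.922), Vsir like Cyba (0.895), Lag3 like Tff1 (0.874), Cd274 like Itpr2 (0.844) and Lgals9 like Itm2b (0.822). Over the 8 sums of the antibody table the same pairs gave 0.988 for Tox, 0.764 for Pdcd1lg2, 0.944 for Ctla4, 0.764 for Pdcd1, 0.925 for Havcr2, 0.605 for Vsir, 0.842 for Lag3, 0.796 for Cd274 and 0.936 for Lgals9.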

How the data were processed

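The authors deposited UMI counts per gene and cell as 2 tables. Cell Ranger 3.1.0 and mm10 are named per the submitters' processing notes. No deposited count was changed. Cells needed at least 500 UMIs, 200 genes and at most 20% mitochondrial UMIs. Scrublet marked 0 to 137 cells per library, which were removed; it marked under 0.5% in Dormant, Jag1 and IgG, so doublets there were in effect kept. Each table was scaled to 10000 per cell, logged and clustered with scanpy 1.11.5 (2000 variable genes, 30 components, 15 neighbours, Leiden resolution 1.0). A cluster was named where at least 3 markers were in at least 5% of its cells and no other class led its top 10 genes; this rule was revised 1 time after clusters were seen.

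UMIs were summed per class and library. Intervals are exact Poisson for CPM, exact Clopper-Pearson for shares and exact conditional for log2 ratios, which used a prior count of 0.5. They cover counting error only. Classes and subsets under 50 cells are given with their cells or UMIs, also where a CPM is printed, and their intervals are wide. TMM factors came from edgeR 4.0.16. The pipeline was tested on simulated data. The members and lists were chosen with earlier results of these data known. Genes named beside the members were those most like each member, and up to 3 with the largest ratio on each side of each list. Cell filters, clustering, scaling, UMI minimums and class rules were varied.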

Additional observations from a re-analysis of the deposited data

How the results depend on the processing

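Counts of members past 2-fold in T-like and macrophage- or monocyte-like cells were recomputed 120 times, of which 100 stayed within 1.5 times the reported count and 20 moved. In Dormant against Primary T-like cells, 1 as reported, the count was 2 with the stricter cell filter, TMM factors or equal weight for each cluster and 4 at Leiden resolution 0.5. In Dormant against Primary macrophage- or monocyte-like cells, 1 as reported, it was 2 with no minimum of UMIs or equal cluster weight, 0 with at least 50 UMIs, 4 with each library clustered separately and 3 with classes taken from the markers each cell holds. In Long-term dormant against Dormant macrophage- or monocyte-like cells, 3 as reported, it was 6 with no minimum, separate clustering or marker classes. In Recurrent against Dormant, 3 as reported there, it was 1 with at least 50 UMIs, 1 with the top cell of each gene left out and 5 with equal weight. In Recurrent against Primary T-like cells, 0 as reported, it was 1 with no minimum or resolution 0.5 and 2 with separate clustering. In Jag1 against IgG macrophage- or monocyte-like cells, 0 as reported, it was 2 with no minimum and 1 with equal weight. At resolution 0.5 the T-like class held 471 Primary and 227 Recurrent cells, against 662 and 404 as reported. The NK-like class then held 247 Primary and 242 Recurrent cells, against 56 and 65. Cluster 12, named T-like as reported, held 190 Primary and 179 Recurrent cells. The cause of the moved counts was not tested. Of 1454 log2 ratios of members 1369 stayed and 85 moved, and of 97 counts in NK- and dendritic-like cells 15 moved. Of 240 shares of cells with a UMI, 148 moved and 92 stayed when cells were left unthinned or thinned to 2000 UMIs, so a share is tied to the depth it was counted at. Leaving out shared barcodes, splitting T-like cells, leaving out cluster 12 or cells with T cell UMIs, and ratios within macrophage and dendritic subsets were added after seeing the data. No paired analysis was possible because each group had 1 library, which also leaves no replicate to leave out. Depth limits Havcr2 and Tigit in T-like cells and every gene in groups under 50 cells.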
